A study of Mus musculus with 3 samples.

Results

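The genes described here are 9 members of the fibroblast growth factor (FGF) system of the limb bud: the ligands Fgf4, Fgf8, Fgf9, Fgf10 and Fgf17 and the receptors Fgfr1, Fgfr2, Fgfr3 and Fgfr4. They were taken from a list and found in the deposited matrix by their Ensembl gene identifiers, and all 9 had an entry among its 15122 genes. They were measured in single cells of wild-type mouse forelimb buds, which were taken apart with trypsin and captured in droplets (10x Genomics, 3′ counting). There were 3 libraries, 1 per group: B6_E10.5 (c57bl6.J embryos, stage E10.5), 129_E9.5 (129S6.sv embryos, stage E9.5) and B6_E9.5 (c57bl6.J embryos, stage E9.5). Each group was a single droplet reaction, the labels state no number of embryos, and they name no allele or treatment for any group.

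FGF ligands are secreted proteins that bind receptor tyrosine kinases together with heparan sulphate chains and signal mainly through the RAS and ERK kinases. In the limb bud, the apical ectodermal ridge, a thickened rim of ectoderm, secretes FGFs that keep the mesenchyme beneath it growing, and the mesenchyme secretes FGF10, which acts back on the ectoderm. Receptor splice forms decide which ligands are heard: the epithelial form of FGFR2 binds FGF10, and the mesenchymal forms of FGFR1 and FGFR2 bind the ridge FGFs. The 3′ counts used here do not separate these splice forms.

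The authors' table places each cell in 1 of 5 clusters. By their leading genes and marker lists these were ectoderm (surface ectoderm with the ridge), limb mesenchyme, muscle progenitors, endothelium (with megakaryocyte and macrophage genes) and erythroid cells. The libraries B6_E10.5, 129_E9.5 and B6_E9.5 held 18957, 12220 and 12773 cells, with 119942504, 93029510 and 124388358 unique molecular identifiers (UMIs, 1 per captured transcript). Ectoderm made up 1026, 1253 and 1009 of those cells and mesenchyme 15325, 9233 and 9678. The barcodes of 1728 cells occur in more than 1 library and were told apart by their library. The erythroid marker list summed to 297, 449 and 1328 CPM (UMIs of a gene or list per 1000000 UMIs of the class) in the mesenchyme of B6_E10.5, 129_E9.5 and B6_E9.5, and to 406, 1941 and 1475 CPM in their endothelium. How much of this was free RNA was not tested. The gene of highest fold in the endothelium cluster was the megakaryocyte gene Pf4. Megakaryocyte markers there summed to 1333, 276 and 224 CPM in B6_E10.5, 129_E9.5 and B6_E9.5, and macrophage markers to 1326, 19.8 and 35.4 CPM. Endothelium markers summed to 2219, 3360 and 3037 CPM in the same order. The part of blood cells in the endothelium levels was not tested. The erythroid cells, which should lack the FGF ligands and receptors, served as the background, at a median depth of 14608, 12004 and 735 UMIs per cell. Erythroid markers made up 505315, 519162 and 318450 CPM of that class in the same order, which lowers the CPM of its other genes.

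Levels are UMIs summed over a class and library, given as CPM of that class total, with exact Poisson 95% intervals. Shares of cells with a UMI carry exact Clopper-Pearson 95% intervals, and ratios of CPM an interval from the exact conditional binomial. All of these cover counting error only. With 1 library per group there was no replicate check and no test for stage, strain or class. A class sum cannot tell fewer transcribing cells from fewer transcripts per cell, so shares are given beside it. Shares are given as deposited and also thinned, with every cell of at least 2000 UMIs drawn down to 2000 and shallower cells left out.

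Fgf8, the main ridge ligand, was an ectodermal transcript in all 3 libraries. Ectoderm held 1003 CPM of Fgf8 in B6_E10.5 (95% interval 978 to 1028), 743 CPM in 129_E9.5 (722 to 764) and 527 CPM in B6_E9.5 (514 to 541). That class held 96.1%, 97.7% and 94.7% of all Fgf8 UMIs of the same libraries. Fgf8 was also the gene of highest fold in the ectodermal cluster, so its place there belongs to how the cluster was made and was given no test. Outside the ectoderm its level lay between 0.647 and 7.94 CPM. In mesenchyme Fgf8 stood at 1.38, 1.22 and 2.58 CPM in B6_E10.5, 129_E9.5 and B6_E9.5. Erythroid cells held 4.88, 0.647 and 6.84 CPM, and the mesenchymal share of cells with a UMI (0.620%, 0.715% and 2.40%) was under or near the erythroid share (1.75%, 0.477% and 2.42%). The mesenchymal Fgf8 is read as background, although in B6_E10.5 a single erythroid cell held 23 of the 29 erythroid UMIs. In the muscle class of B6_E10.5, 5.27% of cells held an Fgf8 UMI (4.20 to 6.53), above the erythroid 1.75% (0.705 to 3.56) of that library. The muscle share was 6.32% in B6_E9.5 (3.79 to 9.80) and 0.927% in 129_E9.5 (0.341 to 2.01). The muscle level of B6_E9.5, 6.12 CPM, stood beside 6.84 CPM in its erythroid cells.

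Fewer ectodermal cells held Fgf8 in B6_E10.5 than in either E9.5 library, and those that did held more of it. Fgf8 was found in 24.5% of ectodermal cells of B6_E10.5 (21.9 to 27.2), 41.0% of 129_E9.5 (38.3 to 43.8) and 45.6% of B6_E9.5 (42.5 to 48.7). Median depth in ectoderm was 5731.5, 4747 and 10410 UMIs in that order, and after thinning the shares were 23.1%, 37.9% and 33.5%. Because the share runs against the CPM between B6_E10.5 and B6_E9.5, no order of the stages is read from it. The thinned counts per positive cell had a median of 8 UMIs in B6_E10.5 (quartiles 4 and 14, highest 32), 3 in 129_E9.5 (2 and 6, highest 18) and 2 in B6_E9.5 (1 and 4, highest 14). Cells with at least 5 thinned Fgf8 UMIs made up 16.9% of the ectoderm of B6_E10.5, 14.3% of 129_E9.5 and 6.43% of B6_E9.5, and they held 92.4%, 67.5% and 43.7% of the Fgf8 UMIs. In B6_E10.5, then, nearly all Fgf8 UMIs came from strongly positive cells, and single-UMI cells were 4.27% of the positives, against 20.5% in 129_E9.5 and 34.0% in B6_E9.5.

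**Figure D1:**
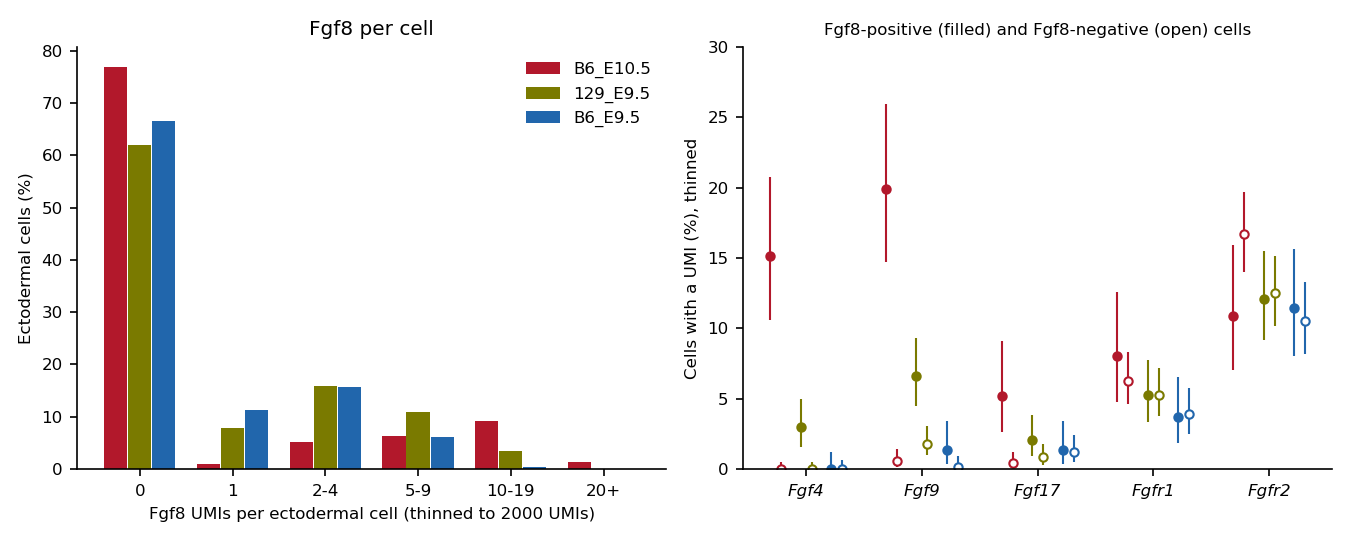
Left, share of ectodermal cells (%) by Fgf8 UMIs per cell after thinning to 2000 UMIs, in B6_E10.5, 129_E9.5 and B6_E9.5; right, share of Fgf8-positive (filled) and Fgf8-negative (open) ectodermal cells with a UMI of 5 other members, with exact 95% intervals. Cells of at least 5 Fgf8 UMIs are 16.9% in B6_E10.5, 14.3% in 129_E9.5 and 6.43% in B6_E9.5, and Fgf4 and Fgf9 lie above their Fgf8-negative share in B6_E10.5 while Fgfr1 intervals overlap.

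Fgf4, a second ridge ligand that acts on the mesenchyme together with FGF8, was nearly confined to the ectoderm of B6_E10.5 and 129_E9.5. Ectoderm held 129 Fgf4 UMIs in B6_E10.5 (20.9 CPM, 17.5 to 24.9), 37 in 129_E9.5 (5.85 CPM, 4.12 to 8.07) and 0 in B6_E9.5, where the interval reaches 0.343 CPM. At least 1 UMI was found in 6.53% of ectodermal cells of B6_E10.5 and 2.15% of 129_E9.5, against 0 of 1009 cells in B6_E9.5 (interval up to 0.365%). No other class of any library held more than 3 Fgf4 UMIs. All Fgf4-positive ectodermal cells were also Fgf8-positive: 67 of 67 in B6_E10.5 and 27 of 27 in 129_E9.5. Put the other way, Fgf4 was found in 26.7% of the 251 Fgf8-positive cells of B6_E10.5 and in 5.25% of the 514 of 129_E9.5. After thinning, 15.2% of 211 Fgf8-positive cells of B6_E10.5 (10.6 to 20.7) and 2.96% of 439 of 129_E9.5 held Fgf4. Of the Fgf8-negative cells 0 of 701 and 0 of 718 did, with intervals up to 0.5248% and 0.5125%.

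Fgf4 lies on chromosome 7 from 144847367 to 144865243 (plus strand, GENCODE M21 on GRCm38, the build named mm10 in the submitters' processing notes). Fgf9, another ligand that was higher in B6_E10.5, lies on chromosome 14 from 58070547 to 58112720 (plus strand). RefSeq promoter windows, the 250 bases before each annotated start, are shown for these ligands because their levels differed most between the stages. Both windows fall in an intron of a longer GENCODE M21 transcript of the same gene and overlap no exon or UTR. The Fgf4 window is chr7:144861136-144861385 and the Fgf9 window chr14:58072436-58072685, both GRCm38.p6, plus strand, 5′ to 3′, with the GC box (GGGCGG, either strand) in capitals:
Fgf4: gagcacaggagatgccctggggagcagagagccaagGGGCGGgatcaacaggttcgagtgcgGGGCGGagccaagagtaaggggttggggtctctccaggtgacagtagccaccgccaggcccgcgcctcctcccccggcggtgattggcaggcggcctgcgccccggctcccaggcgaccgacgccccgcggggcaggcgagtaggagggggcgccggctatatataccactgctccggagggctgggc
Fgf9: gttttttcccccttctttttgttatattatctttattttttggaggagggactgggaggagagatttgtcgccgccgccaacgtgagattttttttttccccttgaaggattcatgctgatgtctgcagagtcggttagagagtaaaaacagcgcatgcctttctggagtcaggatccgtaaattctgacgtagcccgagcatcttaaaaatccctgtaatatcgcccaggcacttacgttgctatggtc
The Fgf4 window held 2 GC boxes and was 71.2% G and C, and the Fgf9 window held 0 and was 44.8% G and C. GC boxes were found in 32.7% of all 32851 windows of this length, whose median G and C content was 52.4%. RefSeq windows were matched for 6 of the 9 members. The exact TATA box letters TATAAA (12.4% of all windows) and the core bound by TCF and LEF factors (CTTTGA, 13.8%), each searched on both strands, were found in 0 of the windows of these members. Variants were not searched, so the tatatata near the end of the Fgf4 window was not counted. Fgf8, Fgf17 and Fgfr1 had no matched window.

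Fgf9, a ligand known in the mouse from the ridge and from developing muscle, was higher in B6_E10.5 in ectoderm, muscle and mesenchyme. Ectoderm held 33.2 CPM in B6_E10.5 (28.8 to 38.1), 19.9 CPM in 129_E9.5 (16.6 to 23.7) and 5.68 CPM in B6_E9.5 (4.34 to 7.29). The muscle class held 521 Fgf9 UMIs in B6_E10.5 (43.6 CPM, 39.9 to 47.5), 4 in 129_E9.5 (0.796 CPM) and 2 in B6_E9.5 (0.583 CPM). In B6_E10.5 muscle was thus the class of highest Fgf9 level, with an interval above that of ectoderm. Fgf9 was found in 20.8% of muscle cells of B6_E10.5 (7.97% thinned), against 0.618% in 129_E9.5 and 0.702% in B6_E9.5. In mesenchyme, Fgf9 stood at 5.40 CPM in B6_E10.5 (4.93 to 5.90), 0.726 CPM in 129_E9.5 and 1.02 CPM in B6_E9.5. The mesenchymal share of 2.80% in B6_E10.5 (1.10% thinned) was above the erythroid share of 0.249% in the deeper erythroid cells of that library.

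Within ectoderm, Fgf9 went with Fgf8. After thinning, 19.9% of Fgf8-positive cells of B6_E10.5 held Fgf9 (14.7 to 25.9), against 0.571% of Fgf8-negative cells (0.156 to 1.46). The shares were 6.61% against 1.81% in 129_E9.5 and 1.35% against 0.169% in B6_E9.5, where the intervals overlapped. As deposited they were 39.4% against 1.16%, 15.4% against 2.98% and 7.17% against 2.91% in the same libraries, with no overlap of the intervals. Of the Fgf9-positive ectodermal cells, 42 of 46 in B6_E10.5, 29 of 42 in 129_E9.5 and 4 of 5 in B6_E9.5 were Fgf8-positive.

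Fgf17, another ridge ligand, was low, and its level was highest in ectoderm. It reached 8.11 CPM in B6_E10.5 (50 UMIs, 6.02 to 10.7), 4.90 CPM in 129_E9.5 (31 UMIs, 3.33 to 6.96) and 5.21 CPM in B6_E9.5 (56 UMIs, 3.94 to 6.77), with overlapping intervals. In B6_E10.5, 5.21% of Fgf8-positive cells held Fgf17 (2.63 to 9.14) against 0.428% of Fgf8-negative cells (0.0883 to 1.25). In 129_E9.5 the shares were 2.05% and 0.836%, and in B6_E9.5 1.35% and 1.19%, with overlapping intervals in both. As deposited the shares in B6_E10.5 were 12.7% and 1.68%. Mesenchyme held 34, 2 and 4 Fgf17 UMIs in B6_E10.5, 129_E9.5 and B6_E9.5. These were 39.5%, 5.88% and 6.67% of the Fgf17 UMIs of each library, beside 58.1%, 91.2% and 93.3% in ectoderm.

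Fgf10, the mesenchymal ligand that starts and sustains the loop with the ectoderm, ran the other way. Mesenchyme held 19.5 CPM of Fgf10 in B6_E10.5 (18.6 to 20.4), 24.4 CPM in 129_E9.5 (23.3 to 25.6) and 47.1 CPM in B6_E9.5 (45.8 to 48.5). At least 1 UMI was found in 10.2%, 15.9% and 31.1% of mesenchymal cells in that order, and in 3.57%, 4.86% and 9.48% after thinning, so that the share followed the level. Ectodermal Fgf10, at 1.46, 1.58 and 2.89 CPM, had intervals that overlapped those of erythroid cells at 0.841, 0.906 and 3.99 CPM and is read as background. Fgf10 in muscle cells of B6_E10.5, at 4.60 CPM (3.46 to 5.99), lay above the erythroid interval of 0.273 to 1.96. Limb mesenchyme markers summed to 238 CPM in that muscle class and to 64.4 CPM in those erythroid cells, and their part was not tested. In the muscle class of B6_E9.5 Fgf10 stood at 4.37 CPM (2.45 to 7.21).

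**Figure D2:**
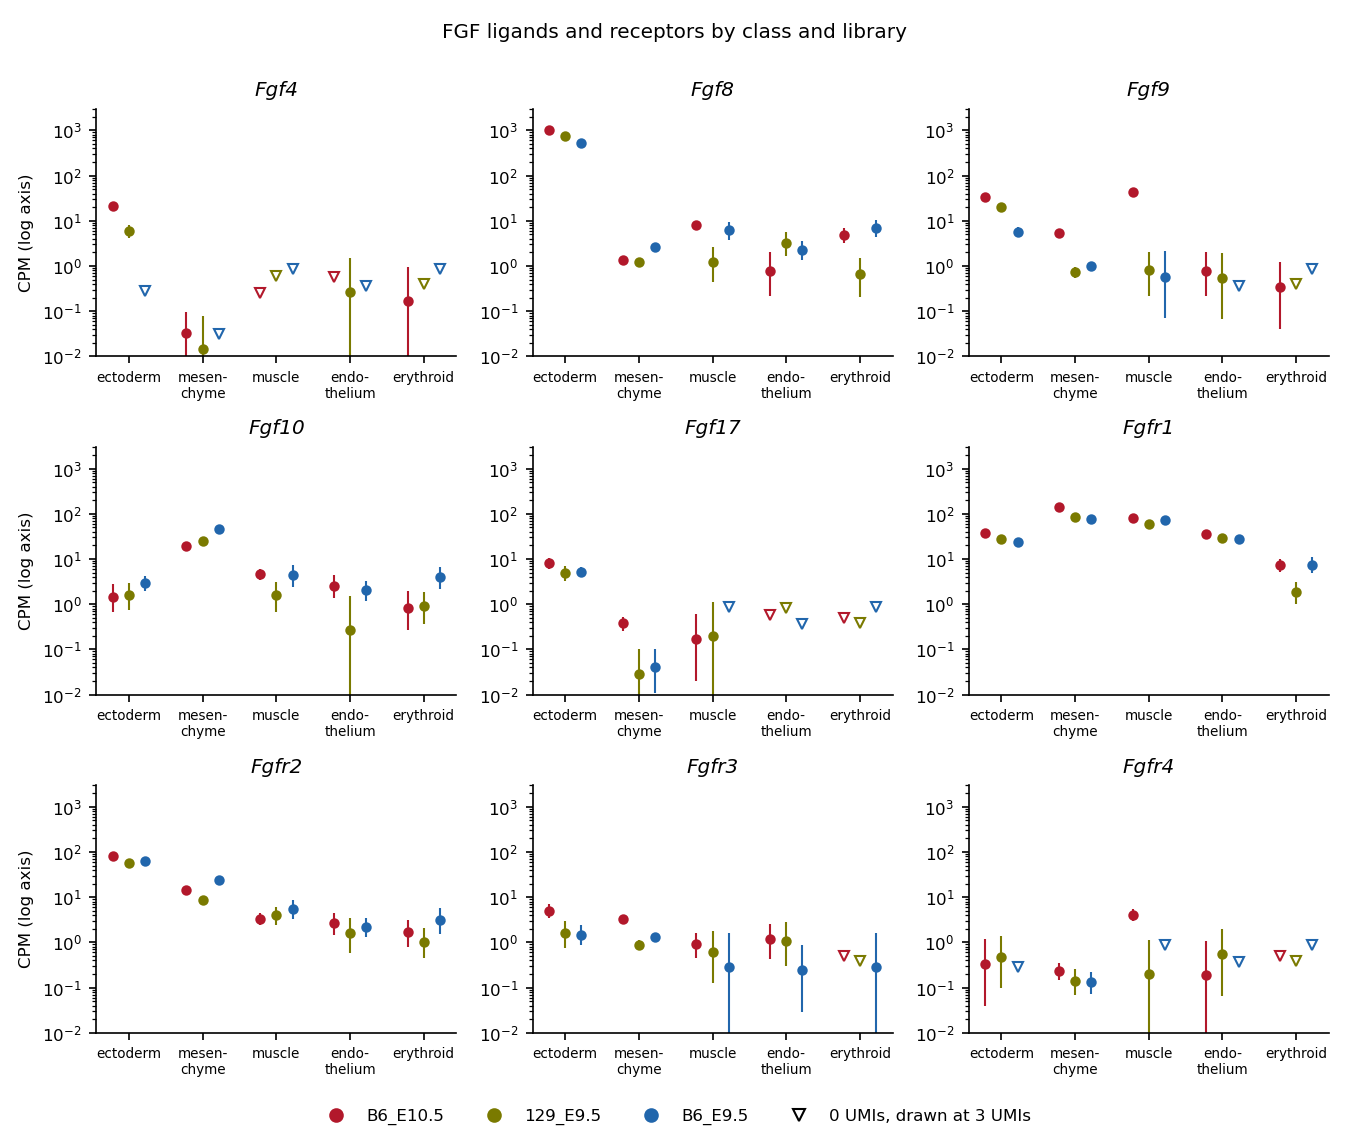
CPM (log axis) of each of the 9 members in 5 cell classes, for B6_E10.5, 129_E9.5 and B6_E9.5, with exact Poisson 95% intervals; open triangles stand for 0 UMIs and are drawn at the level of 3 UMIs. Fgf8 reaches 1003, 743 and 527 CPM in ectoderm, Fgf10 is highest in mesenchyme, and Fgf9 reaches 43.6 CPM in the muscle class of B6_E10.5.

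Among the receptors, Fgfr1, through which mesenchyme receives the ridge FGFs, was found in every class and highest in mesenchyme. Mesenchyme held 142 CPM of Fgfr1 in B6_E10.5 (140 to 145), 84.9 CPM in 129_E9.5 (82.7 to 87.1) and 74.7 CPM in B6_E9.5 (73.0 to 76.4). The muscle class held 79.9, 58.5 and 71.1 CPM, and the mesenchymal and muscle intervals overlapped in B6_E9.5. Ectoderm held 36.8, 27.7 and 24.2 CPM and endothelium 35.3, 28.4 and 27.8 CPM, and these classes did not differ beyond their intervals in any library. Erythroid cells held 7.23, 1.81 and 7.41 CPM. Fgfr1 was found in 50.7% of mesenchymal cells of B6_E10.5, 45.0% of 129_E9.5 and 42.7% of B6_E9.5, and in 24.2%, 15.5% and 13.4% after thinning.

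Fgfr2, whose epithelial form receives FGF10, was highest in ectoderm and second in mesenchyme. Ectoderm held 79.9 CPM in B6_E10.5 (73.0 to 87.3), 56.3 CPM in 129_E9.5 (50.6 to 62.5) and 61.5 CPM in B6_E9.5 (56.9 to 66.4). Thinned shares of ectodermal cells with Fgfr2 were 15.4%, 12.4% and 10.8%, and the shares as deposited 34.4%, 24.3% and 40.5%. Mesenchyme held 14.3 CPM in B6_E10.5 (13.5 to 15.1), 8.77 CPM in 129_E9.5 (8.09 to 9.49) and 23.4 CPM in B6_E9.5 (22.5 to 24.4), and 7.65%, 5.76% and 16.9% of its cells held a UMI. Thinned, those mesenchymal shares were 3.17%, 1.77% and 4.90%, in the order of the CPM. Muscle and endothelium were low, between 1.62 and 5.54 CPM, against 1.04 to 3.14 CPM in erythroid cells. Within ectoderm, Fgfr2 was not higher in the Fgf8-positive cells beyond the intervals in any library. Thinned, 10.9% of Fgf8-positive cells of B6_E10.5 held Fgfr2 (7.04 to 15.9) against 16.7% of Fgf8-negative cells (14.0 to 19.7), with 12.1% against 12.5% in 129_E9.5 and 11.4% against 10.51% in B6_E9.5. As deposited, B6_E10.5 had 24.7% (19.5 to 30.5) against 37.5% (34.1 to 41.1), without overlap, while the other libraries had 23.3% against 25.03% and 42.8% against 38.6%, with overlap.

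Fgfr3, known best as a brake on the growth of cartilage, was low in ectoderm and mesenchyme. Mesenchyme held 3.34 CPM in B6_E10.5 (2.98 to 3.74), 0.868 CPM in 129_E9.5 (0.664 to 1.12) and 1.31 CPM in B6_E9.5 (1.09 to 1.56). Ectoderm held 31, 10 and 16 Fgfr3 UMIs (5.03, 1.58 and 1.49 CPM), and erythroid cells 0, 0 and 1. Fgfr4, known from muscle progenitors, was found mainly in the muscle class of B6_E10.5, with 49 UMIs (4.10 CPM, 3.03 to 5.42) in 3.07% of cells. That class held 1 Fgfr4 UMI in 129_E9.5 and 0 in B6_E9.5, where a floor of 3 UMIs stands for 0.874 CPM. Mesenchyme held 0.232, 0.142 and 0.132 CPM of Fgfr4 in B6_E10.5, 129_E9.5 and B6_E9.5.

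Ectoderm and mesenchyme each held the higher level of their own ligands and of a different main receptor. A gene was called when its CPM ratio was at least 2 or at most 0.5 and it had at least 50 UMIs over the compared classes. In B6_E10.5, 5 of 8 counted members were higher in ectoderm and 2 lower, beside 10.1% and 9.44% of all counted genes. In 129_E9.5 the counts were 3 and 2 of 6, beside 12.3% and 8.29%, and in B6_E9.5 4 and 2 of 7, beside 13.4% and 8.59%. Fgf8 was 728, 607 and 204-fold higher in ectoderm in B6_E10.5, 129_E9.5 and B6_E9.5, Fgf9 6.15, 27.5 and 5.59-fold and Fgfr2 5.60, 6.42 and 2.63-fold. Fgf10 was 13.4, 15.5 and 16.3-fold lower in ectoderm, and Fgfr1 3.86, 3.07 and 3.09-fold lower. Fgf8, Fgf9 and Fgfr2 stood on the ectodermal side and Fgf10 and Fgfr1 on the mesenchymal side in all 3 libraries. The classes were set by the authors from the same counts, so these ratios describe the classes and carry no test.

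The stage comparison set B6_E10.5 over B6_E9.5. In mesenchyme 2 of 6 counted members were at least 2-fold higher and 1 lower, beside 13.7% and 5.01% of 12705 counted genes. The median log2 ratio of all genes there was 0.13, and 0.00 with TMM scaling factors. Mesenchymal Fgf9 was 5.32-fold higher (4.28 to 6.66), Fgfr3 2.55-fold higher (2.07 to 3.16) and Fgf10 2.42-fold lower (2.29 to 2.56). Fgfr1 was 1.90-fold higher (1.85 to 1.96) and Fgfr2 1.64-fold lower (1.53 to 1.76), both under the 2-fold limit. In ectoderm 2 of 6 counted members were at least 2-fold higher and 0 lower, beside 4.79% and 2.50% of 10306 genes. Those were Fgf4, at least 74.9-fold higher when its 0 in B6_E9.5 is set to the floor of 3 UMIs (the 95% counting interval starts at 60.1-fold), and Fgf9, 5.86-fold higher (4.38 to 7.93). Ectodermal Fgf8 was 1.90-fold higher (1.83 to 1.97), Fgf17 1.56-fold (1.04 to 2.32), Fgfr1 1.52-fold (1.27 to 1.83) and Fgfr2 1.30-fold (1.15 to 1.46). In the muscle class, 1 of 5 counted members, Fgf9, was higher (74.8-fold, 20.6 to 619) and 0 lower, beside 6.0% and 5.04% of 9877 genes, while Fgfr1 was 1.12-fold higher (0.976 to 1.30). Muscle Fgf9 also reached the limit only through B6_E10.5 (521 UMIs against 2), so the muscle count is only a description too. The direction of the stage difference thus depended on the class for Fgfr2, which was higher in ectoderm and lower in mesenchyme, a difference that was not tested.

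The strain comparison set 129_E9.5 over B6_E9.5 and shares the library B6_E9.5 with the stage comparison, so the results of both move with that library. In mesenchyme 0 of 6 counted members were at least 2-fold higher and 2 lower, beside 5.00% and 6.99% of 12302 genes. Fgfr2 was 2.67-fold lower (2.44 to 2.92), and the other was the background-level Fgf8. Mesenchymal Fgf10 was 1.93-fold lower in 129_E9.5 (1.82 to 2.04), Fgfr3 1.51-fold lower and Fgfr1 1.14-fold higher (1.10 to 1.18). In ectoderm 1 of 5 counted members, Fgf9, was higher (3.51-fold, 2.57 to 4.85) and 0 lower, beside 2.80% and 4.37% of 10184 genes. Ectodermal Fgf8 was 1.41-fold higher in 129_E9.5 (1.36 to 1.46), and the intervals of Fgfr1, Fgfr2 and Fgf17 included 1. Ectodermal Fgf4, with 37 UMIs against 0, was under the limit of 50 UMIs and was at least 21.0-fold higher at the floor of 3 UMIs (interval from 16.2-fold). When 129_E9.5 took the place of B6_E9.5 as the E9.5 library, mesenchymal Fgf9 was 7.44-fold and Fgfr3 3.85-fold higher in B6_E10.5, and Fgf10 was 1.25-fold lower. Ectodermal Fgf4 was then 3.57-fold (2.46 to 5.30) and Fgf9 1.67-fold (1.33 to 2.10) higher. Mesenchymal Fgfr2 turned round, with 1.63-fold more in B6_E10.5 than in 129_E9.5 (1.48 to 1.79). In the muscle class, 4 of 6 counted members were then at least 2-fold higher in B6_E10.5 and 0 lower, beside 7.71% and 5.36% of 10018 genes. They were Fgf9 (54.8-fold, 21.3 to 202), Fgfr4 (49 UMIs against 1), Fgf8 (6.66-fold, 2.95 to 18.6) and Fgf10 (2.89-fold, 1.37 to 7.03). In 129_E9.5 they held 4, 1, 6 and 8 UMIs. They thus reached the limit of 50 UMIs only through B6_E10.5, and the count of calls is only a description. Over B6_E9.5, muscle Fgf8 was 1.30-fold higher (0.803 to 2.19) and Fgf10 1.05-fold (0.586 to 2.01), with intervals that included 1.

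**Figure D3:**
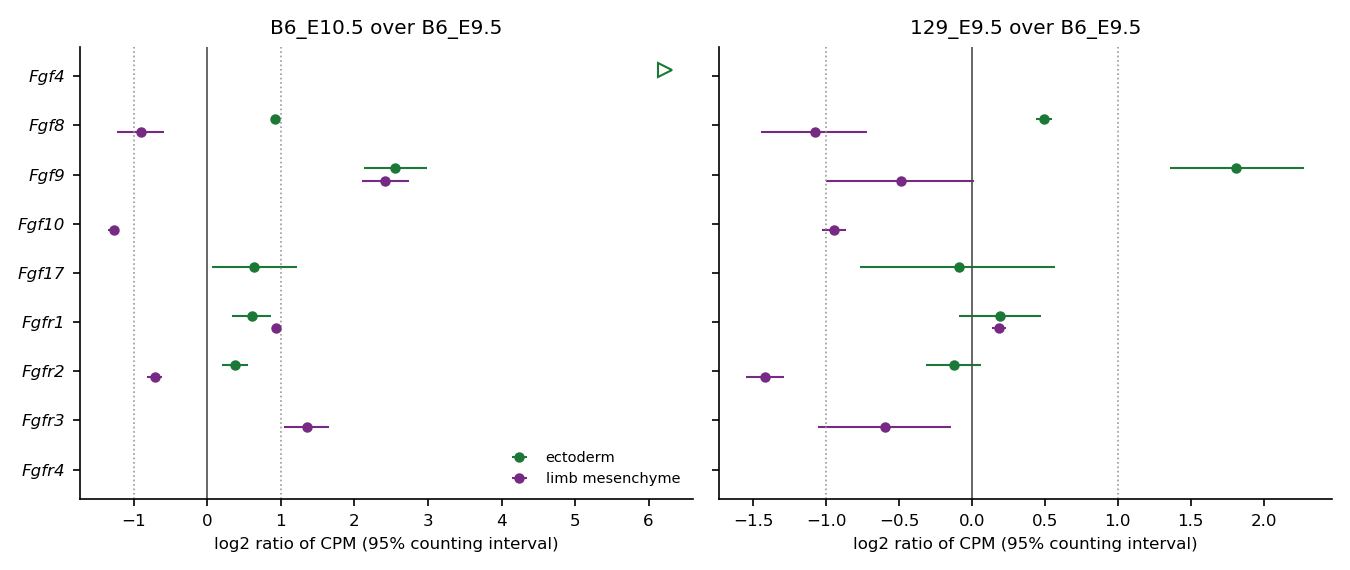
Log2 ratios of CPM with 95% counting intervals for members of at least 50 UMIs over both libraries, in ectoderm and limb mesenchyme; left, B6_E10.5 over B6_E9.5, right, 129_E9.5 over B6_E9.5. Dotted lines mark 2-fold, the open triangle is Fgf4 against 0 UMIs at 3 UMIs, and Fgfr4 had too few UMIs to be drawn; Fgf9 in ectoderm lies right of the line in both panels and Fgf10 in mesenchyme left of 0 in both.

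Other genes of the pathway were read from lists of FGF ligands, co-receptors, heparan sulphate enzymes and carriers, signal relay, response and feedback, and regulators of the limb ligands. In mesenchyme of B6_E10.5 over B6_E9.5, where 13.7% of all counted genes were higher and 5.01% lower, 3 of 7 counted other ligands were higher. The median log2 ratio of the 7 was 0.90 beside 0.13 for all genes. The higher ligands were Fgf18 (12.6-fold, 7.02 against 0.559 CPM), Fgf2 (3.004-fold, 1.31 against 0.437 CPM) and Fgf7 (52 against 0 UMIs). The response list, Sprouty and Spred inhibitors, the ERK phosphatase Dusp6 and Etv factors, had 1 of 11 higher (Spred3) and 0 lower there. Of 12 counted ligand regulators Shh, the posterior signal that maintains ridge FGFs, was 7.65-fold higher (3.19 against 0.416 CPM), and Dlx5 and Dlx6 were also higher. Sp6 and Sp8 were lower, but at 2.68 and 1.66 CPM in B6_E9.5 they lay under the 2.85 and 7.98 CPM of its erythroid cells and are read as background. The relay list of 12 genes had 0 calls.

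In ectoderm Spry2, of the response list, was at least 2-fold lower than in B6_E9.5 in both B6_E10.5 and 129_E9.5. Spry2, a feedback inhibitor, reached 62.8 CPM in B6_E10.5, while 129_E9.5 had 26.4 CPM, against 175.6 CPM in B6_E9.5. By stage 2 of 11 response genes were lower (Spry2 and Spred3), beside 2.50% of all counted genes. Their list had a median log2 ratio of -0.38 beside 0.02 for all genes. By strain 3 of 11 were lower (Spry1, Spry2 and Spred2), beside 4.37% of all counted genes, with a median of -0.82 beside 0.02. In B6_E10.5 over 129_E9.5, 2 of 10 were higher (Spry2 and Il17rd) and 0 lower, with a median of 0.46 beside 0.01, where 5.28% and 2.18% of 9856 genes were called. Spry2 was also 4.53-fold lower in the mesenchyme of 129_E9.5 (10.4 against 47.3 CPM), where it was 1 of 2 lower of 11, beside 6.99% of all counted genes. Fgfrl1, a receptor without a kinase domain, was 2.40-fold lower by stage and 4.93-fold lower by strain in ectoderm. Fgfbp1, a carrier of FGFs, had 50 UMIs in the ectoderm of B6_E10.5 against 0 in B6_E9.5. Of 12 counted ligand regulators, Wnt3, which induces the ridge, was 2.14-fold higher by stage (59.8 against 28.0 CPM), but its level in 129_E9.5 was 60.3 CPM. Sp9, Tbx5 and Hand2 were also higher by stage, and Dlx5 and Msx2 lower. Against 129_E9.5, Sp9 and Tbx5 were the regulators called. In ectoderm, markers of neural crest and Schwann precursors summed to 247 CPM in B6_E10.5, 55.4 in 129_E9.5 and 35.8 in B6_E9.5, with 0, 1 and 1 of the 5 at 0, and their part in these ratios was not tested.

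Of the response list, 10 genes were counted in the muscle class, with 0 called higher and 6 lower in B6_E10.5 than in B6_E9.5. Of all 9877 counted genes 6.0% were higher and 5.04% lower. The median log2 ratio of the list was -1.21 beside -0.03 for all genes. Spry4 was 12.4-fold lower (2.34 against 29.1 CPM), Spred2 3.88-fold (11.7 against 45.4 CPM), Spry2 3.05-fold (20.9 against 63.8 CPM) and Dusp6 2.75-fold (31.4 against 86.5 CPM). Spry1 and Etv1 were the others. Over 129_E9.5, 0 of 10 were higher and 4 lower (Dusp6, Spry4, Spred3 and Etv4), beside 7.71% and 5.36% of all counted genes. The median was -0.64 beside 0.00, and Spry2 at 20.9 CPM in B6_E10.5 stood above its 13.3 CPM in 129_E9.5. By strain, where 9 were counted, Spry2, Spry4 and Spred2 were lower and 0 higher. The list median was then -0.49 beside -0.02 for all genes. The share of all genes called by strain in this class is not given here, so nothing is read from the count. Somite and sclerotome markers summed to 207 CPM in the muscle class of B6_E10.5, 439 in 129_E9.5 and 729 in B6_E9.5, with 0, 2 and 2 of the 4 at 0. Endothelium markers summed to 27.4, 114 and 194 CPM in that order, with 0, 1 and 0 of the 8 at 0. The part of these cells in the response genes was not tested. Neuron markers summed to 11.8 CPM in the muscle class of B6_E10.5, 780 in 129_E9.5 and 7.28 in B6_E9.5, and without the cells that held at least 2 of the 4 neuron markers Fgf9 was 73.8-fold higher by stage.

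Within the muscle class of B6_E10.5, Fgf9-positive and Fgf9-negative cells held 1218 and 1223 CPM of summed muscle markers after thinning (117 and 1351 cells). Myf5, a regulator that commits cells to muscle, was 1.78-fold higher in Fgf9-positive cells (227 against 127 CPM, 1.31 to 2.38), and Pax3, which marks migrating progenitors, stood at 201 against 308 CPM (ratio 0.652, 0.476 to 0.875). Fgf9 was found in 13.2% of 296 Myf5-positive cells (9.54 to 17.6) and 6.66% of 1172 Myf5-negative cells (5.30 to 8.24). Of the 11 response genes only Dusp6 had an interval without 1 after thinning (55.6 against 26.3 CPM, 2.11-fold, 1.07 to 3.85). Etv4 was at 17.1 against 31.8 CPM (ratio 0.537, 0.143 to 1.43) and Spry4 at 0 UMIs against 11. In cells as deposited (311 and 1187), intervals lay above 1 for Dusp6 (1.81-fold, 1.45 to 2.24) and Spry1 (2.66-fold, 1.25 to 5.58). The same held for Spry2 (1.47-fold, 1.11 to 1.93) and Etv1 (1.83-fold, 1.22 to 2.72). Intervals of the other response genes included 1 there, with a ratio of 1.225 for Etv4 and 1.51 for Spry4. As deposited, the 46 Fgfr4-positive muscle cells held 190 CPM of Myod1, a regulator of muscle differentiation, against 50.1 CPM in the 1452 others (3.79-fold, 2.97 to 4.78). After thinning 9 Fgfr4-positive cells remained, in which the Myod1 ratio was 2.24 (0.268 to 8.22). These are values of cells of a single library, with no test.

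To see which genes go with Fgf8 inside the ectoderm, thinned UMIs were summed over Fgf8-positive and Fgf8-negative cells of each library: 211 and 701 cells in B6_E10.5, 439 and 718 in 129_E9.5, and 297 and 590 in B6_E9.5. The contrast was tested with edgeR's quasi-likelihood test with library as a term. The libraries are different stages and strains, not replicates. The p-values set the contrast over these 3 libraries against a spread that the test shares between genes. They are therefore not a measure of a gene's own spread over replicates. With Benjamini-Hochberg adjustment under 0.05, 337 genes were higher in Fgf8-positive cells and 156 lower, 4.18% and 1.93% of 8064 tested. Without 129_E9.5, 9 genes passed, all of them among the 493, and without the library term 33 passed.

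Rspo2, a secreted enhancer of WNT signalling made by the ridge, had 202 CPM in Fgf8-positive and 0.713 CPM in Fgf8-negative cells of B6_E10.5. It had 204 and 10.4 CPM in those of 129_E9.5 and 60.7 and 3.39 CPM in those of B6_E9.5. Fgf8-positive cells were higher in 3 of 3 libraries (log2 fold change 5.00, SE 0.345, edgeR adjusted p 7.87e-06). Tent5a, a poly(A) polymerase, had 281 against 2.85 CPM in B6_E10.5, 144 against 9.75 CPM in 129_E9.5 and 50.6 against 0.848 CPM in B6_E9.5 (log2 fold change 5.07, SE 0.343, edgeR adjusted p 7.87e-06). Both genes were low in the Fgf8-negative cells of every library. Bmp4, a signal from the ridge, had 743 against 16.4 CPM in B6_E10.5, 582 against 63.4 CPM in 129_E9.5 and 302 against 74.6 CPM in B6_E9.5 (log2 fold change 3.42, SE 0.373, edgeR adjusted p 0.000209). The other leading genes higher in Fgf8-positive cells were Npm3, the amino acid transporter Slc16a10, the gap junction gene Gja1, Tubb3, the semaphorin receptor Nrp2, Emp1, the WNT inhibitor Apcdd1 and Wnt5a, with log2 fold changes from 1.35 to 3.78, each in 3 of 3 libraries.

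Gas1, a Hedgehog co-receptor, had 64.3 against 308.8 CPM in B6_E10.5, 44.5 against 192 CPM in 129_E9.5 and 62.4 against 203 CPM in B6_E9.5 (log2 fold change -1.98, SE 0.153, edgeR adjusted p 2.06e-05). Bhlha9, a transcription factor of the limb ectoderm, had 26.2 against 306 CPM in B6_E10.5, 59.4 against 330.1 CPM in 129_E9.5 and 72.5 against 215 CPM in B6_E9.5 (log2 fold change -2.33, SE 0.227, edgeR adjusted p 0.000102). Fgf8-positive cells were lower for both in 3 of 3 libraries. Tfap2b, which is also the single tested neural crest marker, had 14.3 against 304.6 CPM in B6_E10.5, 0 against 56.4 CPM in 129_E9.5 and 5.06 against 24.6 CPM in B6_E9.5 (log2 fold change -4.33, SE 0.385, edgeR adjusted p 4.97e-05). The other leading lower genes were Krt7, the metallothionein Mt2, the WNT antagonist Sost, Emx2, the imprinted gene Mest, Wnt7b and Meox1, with log2 fold changes from -3.85 to -1.15.

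Of the ridge marker list, 7 of 8 tested genes were higher in Fgf8-positive cells (Rspo2, Msx2, Dlx5, Dlx2, Dlx6, Sp6 and Sp8) and 1 lower (Bhlha9), with a median log2 fold change of 1.06 beside 0.01 for all genes. Dlx5 had 148 against 2.85 CPM in B6_E10.5, 131 against 27.2 CPM in 129_E9.5 and 103 against 44.1 CPM in B6_E9.5 (log2 fold change 2.45, SE 0.408, edgeR adjusted p 0.00284). Of 9 tested regulators of limb ligands, 8 were higher: Bmp4, Msx2, Trp63, Ctnnb1, Dlx5, Dlx6, Sp6 and Sp8, some of which are also ridge markers. Of 11 surface ectoderm markers 1 was higher (Trp63) and 3 lower, the keratins Krt14 (log2 fold change -1.78), Krt8 (-1.11) and Krt18 (-0.83). Of 17 heparan sulphate genes, Sulf1, an enzyme that trims the chains, was higher (log2 fold change 1.45) and Sulf2 (-0.79) and Gpc3 (-0.63) lower. Of the response list 1 of 10 was higher, Spry2, with 114 against 64.9 CPM in B6_E10.5, 39.9 against 26.5 CPM in 129_E9.5 and 276.5 against 187 CPM in B6_E9.5 (log2 fold change 0.68, SE 0.145, edgeR adjusted p 0.0139). Of the genes these lists name, Rspo2 alone passed without 129_E9.5, and Dlx5, Dlx6, Sulf1, Sulf2, Gpc3 and Spry2 did not pass by DESeq2. The receptors showed no call: Fgfr2 had a log2 fold change of -0.17 (SE 0.188, edgeR adjusted p 0.705) and Fgfr1 one of 0.13 (edgeR adjusted p 0.837). Marker lists of other cells that moved with this contrast were limb mesenchyme (Pdgfra higher and Prrx2 lower of 4 tested), neuron (Tubb3 higher of 1), neural crest (Tfap2b lower of 1) and somite (Meox1 lower of 1), and their part in it was not tested.

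**Figure D4:**
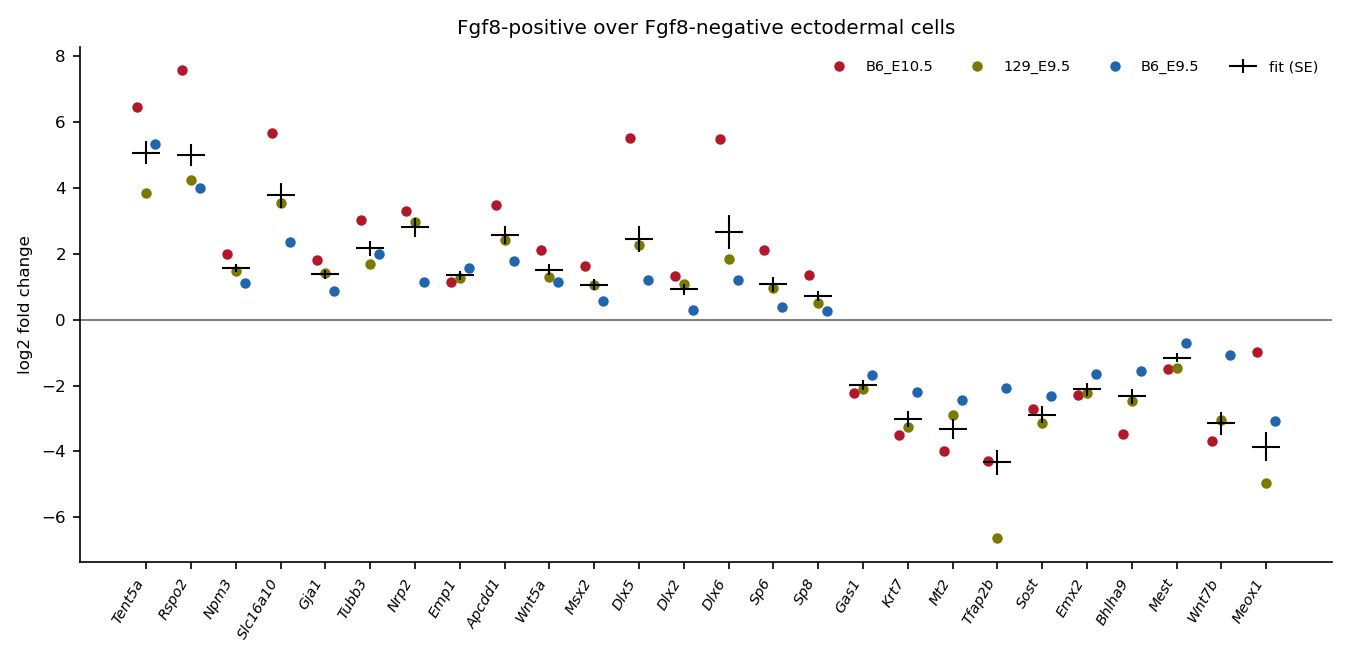
Log2 fold change of Fgf8-positive over Fgf8-negative ectodermal cells after thinning, for the named genes and the called ridge markers; coloured points are single libraries (B6_E10.5, 129_E9.5, B6_E9.5) and black crosses the edgeR estimate over 3 libraries with its standard error. Rspo2 and Tent5a lie highest (5.00 and 5.07) and Tfap2b lowest (-4.33), and the points of each gene share 1 side of 0.

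In mesenchyme, few genes passed in the contrast for Fgf10. Fgf10-positive cells (489 in B6_E10.5, 436 in 129_E9.5 and 662 in B6_E9.5) were set against Fgf10-negative cells (13215, 8531 and 6319) in the same way. As deposited, 1565, 1463 and 3012 mesenchymal cells held Fgf10, and a cell whose Fgf10 was lost in thinning counts as negative. A small count of calls therefore does not show that few genes go with Fgf10. By edgeR 3 genes were higher and 4 lower, 0.0278% and 0.0371% of 10783 tested, and 679 had an unadjusted p under 0.05. The count was 1 without B6_E10.5, 40 without 129_E9.5 and 40 without B6_E9.5, and 0 without the library term (42 at an unadjusted p under 0.05), and DESeq2 called 1, so the names below depend on which libraries enter. Sall3, a zinc finger factor of the limb, had 64.5 against 28.6 CPM in B6_E10.5, 39.0 against 27.9 CPM in 129_E9.5 and 45.3 against 25.7 CPM in B6_E9.5 (log2 fold change 0.85, SE 0.143, edgeR adjusted p 0.0137). Hoxd11, a Hox gene of the distal and posterior limb, had 212 against 134 CPM, 64.2 against 48.3 CPM and 12.1 against 8.86 CPM in the same libraries (log2 fold change 0.58, SE 0.105, edgeR adjusted p 0.0179). The remaining higher gene, Rpgrip1, did not keep 1 direction over the libraries and is named here after its values were seen.

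The lower genes were Crabp2, Fibin, Igfbp2 and Emx2. Crabp2, a binding protein of retinoic acid, had 453 against 575 CPM in B6_E10.5, 434 against 549 CPM in 129_E9.5 and 449 against 544 CPM in B6_E9.5 (log2 fold change -0.33, SE 0.0495, edgeR adjusted p 0.00423). Log2 fold changes were -1.34 for Emx2, -1.31 for Fibin and -0.75 for Igfbp2, each lower in 3 of 3 libraries. The response list had 0 calls by edgeR of 11 tested, with 4 at an unadjusted p under 0.05, and a median log2 fold change of 0.24 beside -0.01 for all genes. Of its genes Etv5, a factor induced by FGF, had a log2 fold change of 0.45 (edgeR adjusted p 0.508) and Dusp6 of 0.31 (edgeR adjusted p 0.475). Of the receptors Fgfr2 had a log2 fold change of -0.68 in Fgf10-positive cells (edgeR adjusted p 0.554), with 9.21 against 16.7 CPM in B6_E10.5, 1.15 against 9.61 CPM in 129_E9.5 and 21.2 against 26.4 CPM in B6_E9.5.

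Among the genes that went with or against Fgfr2 in mesenchyme were factors known from the proximal and the distal limb. Fgfr2-positive cells (435 in B6_E10.5, 159 in 129_E9.5 and 342 in B6_E9.5) were set against Fgfr2-negative cells (13269, 8808 and 6639). By edgeR 130 genes were higher and 181 lower, 1.19% and 1.66% of 10903 tested. The count was 162 without 129_E9.5, 150 without B6_E9.5, 65 by DESeq2 and 0 without the library term (152 at an unadjusted p under 0.05). The leading higher genes were Ptn, a heparin-binding growth factor, the imprinted Dlk1, the proximal limb factor Meis2 and the WNT antagonist Sfrp1. Meis2 had 557 against 276 CPM in B6_E10.5, 472 against 236 CPM in 129_E9.5 and 505 against 340 CPM in B6_E9.5 (log2 fold change 0.80, SE 0.0730, edgeR adjusted p 5.07e-24). Ptn had the smallest p, with 2033 against 1152 CPM, 1759 against 850 CPM and 1521 against 864 CPM in the same libraries (log2 fold change 0.83, SE 0.0589, edgeR adjusted p 5.26e-41). P-values this small come from the spread shared between genes, and their size does not measure how alike the libraries were for 1 gene.

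The 5 leading lower genes were the distal limb factors Lhx2, Lhx9 and Msx1, the imprinted Nnat and Dusp6. Lhx2, a LIM-homeodomain factor beneath the ridge, had 20.7 against 69.5 CPM in B6_E10.5, 72.4 against 169 CPM in 129_E9.5 and 52.7 against 118 CPM in B6_E9.5 (log2 fold change -1.40, SE 0.151, edgeR adjusted p 2.49e-17). Dusp6, the ERK phosphatase induced by FGF, had 44.9 against 124 CPM, 101 against 137 CPM and 49.7 against 94.4 CPM in the same libraries (log2 fold change -1.07, SE 0.138, edgeR adjusted p 8.79e-12). Of the response list 4 of 11 tested genes were lower and 0 higher: Dusp6, Etv4 (log2 fold change -1.14), Il17rd (-0.94) and Spry2 (-0.65), with a list median of -0.52 beside -0.02 for all genes. Each was lower in 3 of 3 libraries. Spry2 did not pass without 129_E9.5, and neither Spry2 nor Il17rd passed by DESeq2. Grem1, which relays between ridge and posterior mesenchyme, was also lower (log2 fold change -1.06), a call lost without 129_E9.5 and by DESeq2. Hand2, a posterior factor, was higher (0.68), a call lost with a second random seed. The glypican Gpc6 was higher (0.62). The FLRT co-receptors Flrt2 (0.68) and Flrt3 (0.63) passed as well, but not without 129_E9.5, by DESeq2 or with the second seed. Fgf10 had a log2 fold change of -0.63 in Fgfr2-positive cells (edgeR adjusted p 0.127), and Fgfr1 one of -0.01. Markers of other classes that were higher in Fgfr2-positive cells were Krt18, 1 of 5 tested surface ectoderm genes (13.8 against 9.04 CPM in B6_E10.5, 22.0 against 6.70 CPM in 129_E9.5 and 20.5 against 6.33 CPM in B6_E9.5), both tested ridge genes (Rspo2 and Msx2) and Wt1, 1 of 2 mesothelium genes. The calls of Krt18 and Wt1 were likewise lost in all 3 of these alternatives. The part of such cells in the contrast was not tested, and a median of 4866, 7030 and 10573.5 deposited UMIs in Fgfr2-positive cells stood beside 5954, 7563.5 and 14192 in Fgfr2-negative cells.

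**Figure D5:**
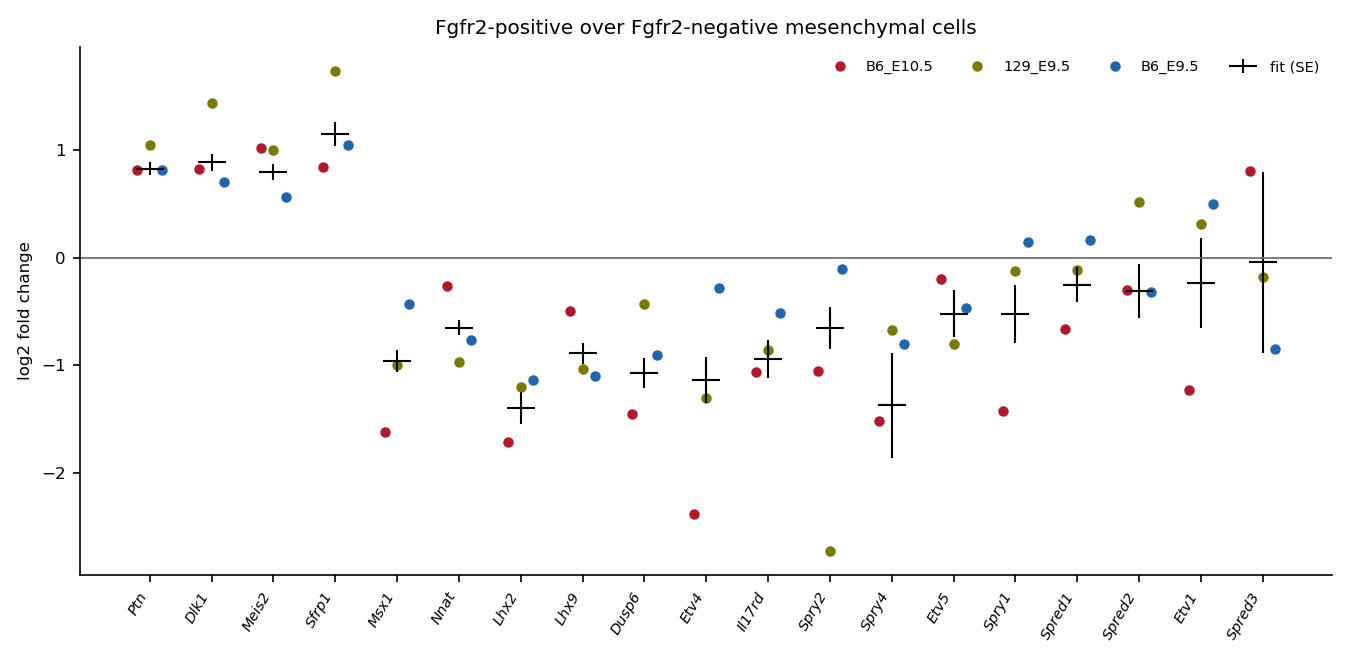
Log2 fold change of Fgfr2-positive over Fgfr2-negative mesenchymal cells after thinning, for 4 named higher genes, 5 named lower genes and the response list; coloured points are single libraries (B6_E10.5, 129_E9.5, B6_E9.5) and black crosses the edgeR estimate with its standard error. Ptn, Dlk1, Meis2 and Sfrp1 lie above 0 in 3 of 3 libraries, and Dusp6, Etv4, Il17rd and Spry2 below 0.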

How the data were processed

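Forelimb bud cells of 3 libraries were measured by 10x Genomics 3′ single-cell RNA sequencing. The authors deposited 1 matrix of whole-number UMI counts (15122 genes, 43950 cells, at least 501 UMIs a cell) and a table of the cluster of each cell, per the file headers. Cell Ranger 3 and mm10 are named in the submitters' processing notes. The clustering method, any doublet removal and the strand setting of the counting are not given in the sources used here. Counts are not scaled by gene length, so levels are compared within a gene.

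Class names came from marker lists and leading genes. The members, lists and tests were chosen with earlier results of these data known. UMIs were summed by class and library. Ratios needed 50 UMIs over the compared sums, and a count of 0 was given a floor of 3 UMIs. Cells were thinned once without replacement to 2000 UMIs with a fixed seed for shares and for the contrasts of positive and negative cells. Those contrasts were fitted with edgeR 4.0.16 in R 4.3.3 (filterByExpr, TMM, quasi-likelihood test, library as a term) with Benjamini-Hochberg adjustment over all tested genes. DESeq2 1.42.0, other thinning depths, filters, scaling and sets of cells or libraries were alternatives. Python 3.11.15, NumPy 2.4.6, pandas 2.3.3 and SciPy 1.17.1 did the rest. The edgeR test was also run on simulated counts in which each gene had the same mean in every library. That run does not cover stage or strain differences, or the splitting of cells by a detected gene, and nothing is read from it.

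Genes were named by rule: in the Fgf8 and Fgf10 contrasts the 10 of smallest p in each direction, in the Fgfr2 contrast 5 (of which 1 higher gene is not reported here), among genes passing the threshold with the same direction in 3 of 3 libraries. Unnamed gene models, ribosomal and mitochondrial genes were counted and not named. Of each pathway list, the genes called or those of most UMIs were named. The same contrast for Fgfr4 in the muscle class could not be fitted, since 0 thinned cells of 129_E9.5 and B6_E9.5 held it, against 9 in B6_E10.5.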

Additional observations from a re-analysis of the deposited data

Results flagged for a closer look

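The stage ratio of Fgfr2, B6_E10.5 over B6_E9.5, had opposite signs in the classes, with a log2 ratio of 0.38 in ectoderm and -0.71 in mesenchyme. With 129_E9.5 in place of B6_E9.5 the log2 ratios were 0.51 and 0.70, so the opposite sign rests on B6_E9.5. The difference between the classes was not tested, since each group is 1 library.

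The ratios of Fgf8 had opposite signs as well. By stage the log2 ratio was 0.93 in ectoderm and -0.90 in mesenchyme, and by strain, 129_E9.5 over B6_E9.5, it was 0.49 in ectoderm and -1.08 in mesenchyme. These differences were not tested either. The mesenchymal Fgf8 lay at the level of the erythroid background, and both ratios share the library B6_E9.5.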

How the results depend on the processing

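Limits. Each group is 1 library, so intervals cover counting error and no stage, strain or class difference was tested over replicates. For these differences no paired analysis was possible because each group holds 1 library. The contrasts of positive and negative cells were paired within library by the library term. The contrast for Fgfr4 was not run, nor were its alternatives. The planned removal of cells with markers of another class took 89.6% of the mesenchymal cells of B6_E9.5, so a version that ignores the haemoglobin genes (0.899%) was added after seeing the data.

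Counts of members at least 2-fold apart were 3 for stage and 2 for strain in mesenchyme, and 2 and 1 in ectoderm. With a minimum of 50 CPM all 4 were 0, and the counts between ectoderm and mesenchyme were 3, 3 and 3 in B6_E10.5, 129_E9.5 and B6_E9.5 in place of 7, 5 and 6. Strain in mesenchyme gave 1 with cells of at least 2000 UMIs. Stage in ectoderm gave 1 with 129_E9.5 in place of B6_E9.5. Strain in ectoderm gave 0 when thinned and 2 with a minimum of 20 or of 1 UMI, and ectoderm over mesenchyme in 129_E9.5 gave 8 with a minimum of 1 UMI.

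In place of 493 genes, the Fgf8 contrast called 1176 without thinning, 310 at 1000 UMIs, 151 by DESeq2, 873 without a filter, 33 without the library term and 9 to 597 leaving out each library. In place of 7, the Fgf10 contrast called 85 without thinning, 1 by DESeq2, 69 without a filter, 0 without the library term (42 at an unadjusted p under 0.05), 26 without cells of mixed markers, 16 with haemoglobin genes ignored and 1 to 40 leaving out each library. It called 10 at 1000 UMIs, of which 0 were among the 7. In place of 311, the Fgfr2 contrast called 1261 without thinning, 31 at 1000 UMIs, 65 by DESeq2, 0 without the library term (152 at an unadjusted p under 0.05), 108 without cells of mixed markers and 150 to 224 leaving out each library. A second random seed gave 446, 5 and 272 calls, of which 337, 3 and 166 were shared with those reported. At 1000 UMIs the log2 fold changes in the Fgfr2 contrast turned to -1.55 for Rspo2, -0.53 for Wt1 and -0.00 for Msx2, none of which passed there. The causes were not tested.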
